A study of Mus musculus with 6 samples.

Results

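The 36 genes described here encode the Wnt ligands, their Frizzled receptors, the co-receptors and other receptors Lrp5, Lrp6, Ror1, Ror2 and Ryk, and the ligand-release proteins Porcn and Wls. They were chosen by symbol from the platform's probe annotation, with the brightest probe set by mean over 6 arrays taken for each, out of 22180 named genes. The set holds 19 Wnt ligands, 10 Frizzled receptors, 5 co-receptors or other receptors and 2 ligand-release genes. All 36 symbols had a probe set, and Lrp6 alone had 2.

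Cells came from the ovarian surface epithelium, the single layer that covers the ovary, of untreated female Lgr5-eGFP-CreERT2 mice of 8 to 12 weeks. In both groups EGFP and a tamoxifen-inducible Cre are expressed from the Lgr5 locus, and the groups are set apart by the EGFP level on which cells were sorted, high (EGFP-high) or low (EGFP-low). There were 3 Affymetrix Mouse Gene ST 2.0 arrays per group, each from material pooled over 8 mice, and the design text calls them technical replicates. Errors and p-values here thus describe how far arrays vary, possibly for technical reasons, and say nothing of variation among animals. In pooled cells, fewer cells of a type and less RNA per cell cannot be told apart.

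The 6 deposited columns were not independent. High 2 equalled the mean of high 1 and high 3, and low 1 equalled the mean of low 2 and low 3 plus 0.75 times high 3 minus high 1, both within a tolerance of 0.002 at all 41345 probe sets. The columns thus hold 4 dimensions, and each difference of group means equals high 3 minus low 1. The high group rests on 2 independent columns, so a small spread among its 3 readings is not that of 3 measurements. The main limma fit had the inferred array sets (a first set of low 1 and high 1, a second of high 3 with low 2 and 3, and high 2 by itself) as a further term and 2 residual degrees of freedom. These sets come from the values and stand in no label. Values are log2 expression as deposited, and a difference is always EGFP-high minus EGFP-low on that scale.

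Wnt proteins are secreted, lipid-modified signals. Porcn, an acyltransferase of the endoplasmic reticulum, attaches the lipid, and Wls carries the modified ligand to the cell surface. On the receiving cell a Frizzled receptor binds the ligand. With Lrp5 or Lrp6 it leads to stabilised beta-catenin, and with Ror1, Ror2 or Ryk it acts on cell polarity and movement. Lgr5, whose locus drives EGFP here, binds R-spondins, which raise the amount of Frizzled and Lrp receptor on the cell surface. In the ovary Wnt4 is needed for female gonad development.

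None of the 36 genes passed the threshold in the main fit. Limma with Benjamini-Hochberg adjustment over all named genes called 0 members, where it called 0.00451% of all named genes, and the members' adjusted p ran from 0.846 for Wnt8b to 0.997 for Fzd3. At an unadjusted p under 0.05 the count was also 0 members, against 5.92% of all named genes (3.04% higher and 2.89% lower). The direction of the difference was above 0 for 21 of the 36, beside 53.8% of named genes. Differences ran from −0.44 for Wnt8b to 0.41 for Fzd7, with a median of 0.054 over the 36 and of 0.025 over all named genes. No member differed by 1.5-fold or more, which 4.89% of named genes did. In the authors' deposited table at that fold, 1134 probe sets beside 41345 with deposited values, 0 of the 37 member probe sets appear. That table is a cut at the same fold on the same arrays, so it is no separate support.

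The 95% intervals, not adjusted for the number of genes, give the differences that the main fit leaves possible. The fit does not model the 2 column relations beyond its array-set term. How often such intervals hold the true difference under them is thus not known. Intervals of all 36 members lay within a 2-fold change in either direction, as did those of 86.5% of named genes, and the most distant bounds were 0.97 for Fzd7 and −0.92 for Wnt8b. Only 8 of the 36 lay within 1.5-fold (21.6% of named genes). For the other 28 a difference of 1.5-fold in at least one direction lies inside the interval, so it could not be told from 0 with these arrays.

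**Figure D1:**
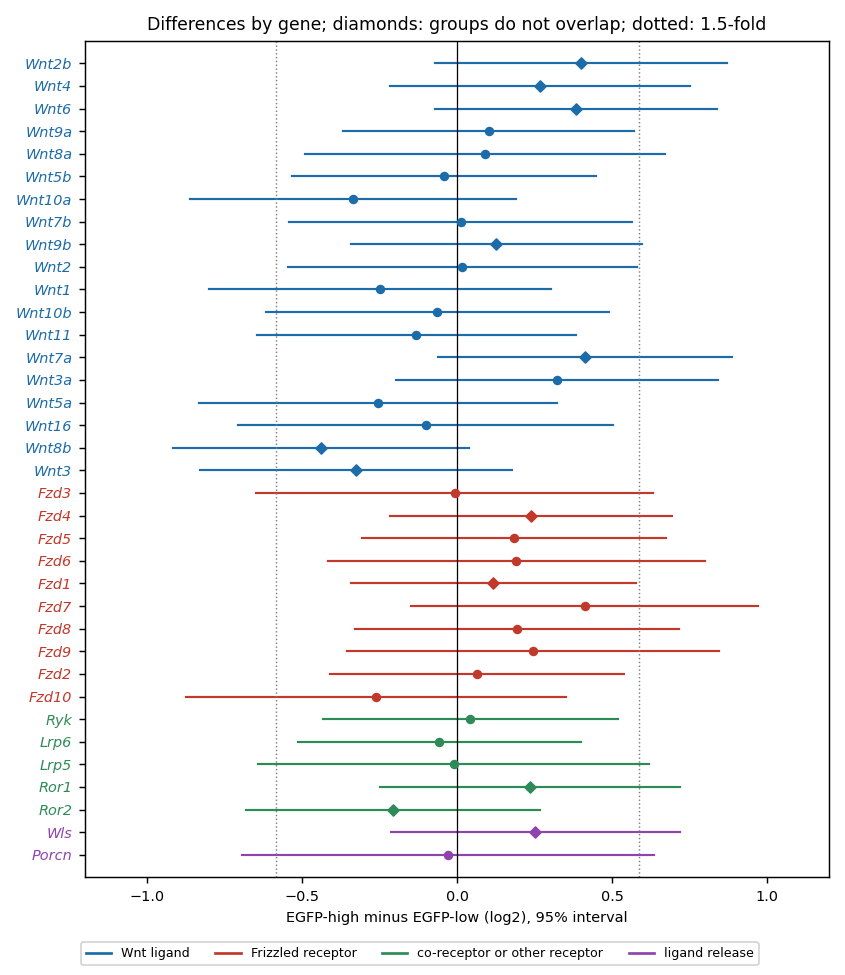
EGFP-high minus EGFP-low for each of the 36 genes (log2, x axis), with 95% intervals from the main fit as bars; colours mark the role, diamonds the 12 genes whose groups do not overlap, dotted lines 1.5-fold. Every interval includes 0.

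The readings of the groups did not overlap for 12 of the 36 genes (33.3%), against 33.2% of all named genes. Of these, 9 were higher in EGFP-high cells (19.3% of named genes) and 3 were lower (13.9%). The overall share thus equals the background. Low 2 read highest of the low arrays for 24 of the 36 members, where it did so for 39.4% of named genes. Without low 2 the groups were apart for 20 members, 14 higher and 6 lower, beside 50.5% of named genes.

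**Figure D2:**
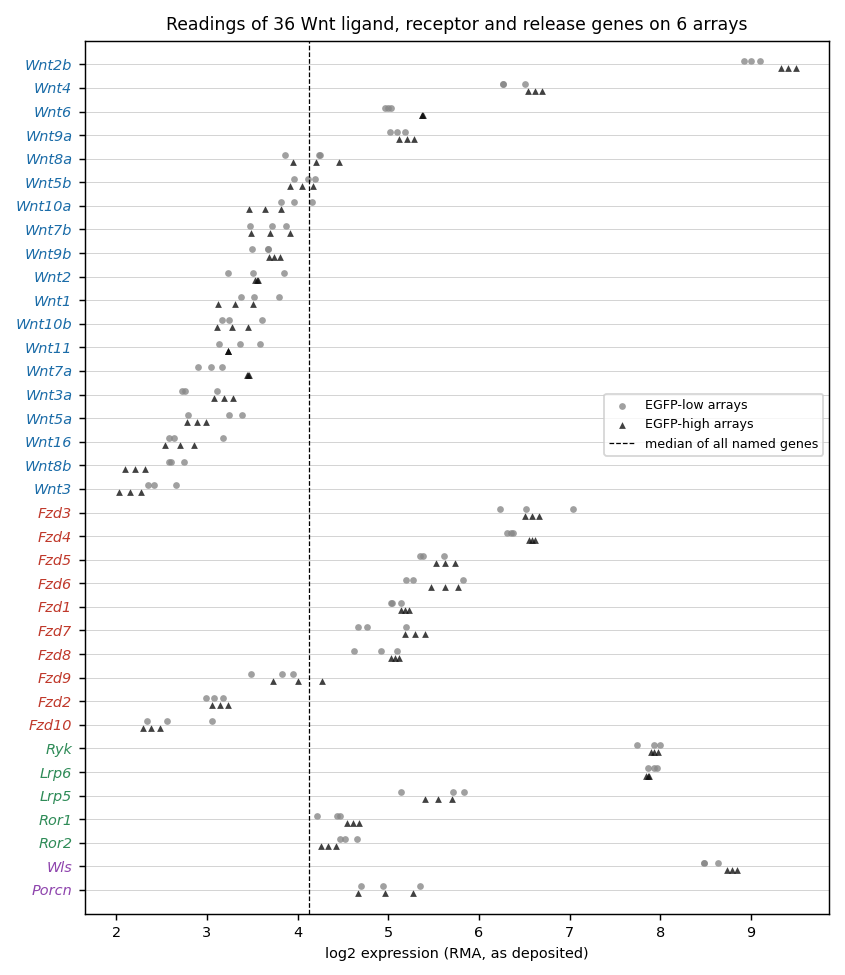
Readings on each array (log2 expression, x axis) for the 36 genes, ordered by role and mean; grey circles are the 3 EGFP-low arrays, black triangles the 3 EGFP-high arrays, and the dashed line the median of all named genes. Wnt2b, Wnt4, Wnt6 and Wls show triangles to the right of all circles, while most ligands lie left of the dashed line with groups that overlap.

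Among the ligands, 10 of 19 differences were above 0 and 9 below, with a median of 0.012. The fit with group as its only term, which treats the 6 columns as independent and has 4 residual degrees of freedom, called 4 members, all of them ligands, where it called 6.67% of named genes. Wnt2b, Wnt6 and Wnt7a were the 3 on the higher side (3.9% of named genes) and Wnt8b the 1 on the lower side (2.77%). None of the 4 calls stood with the array-set term, or with the replicate number as a block, which called 0.018% of named genes (0.0135% lower). At an unadjusted p under 0.05 the group-only fit had 13 members, beside 26.8% of named genes, and the block fit 5, beside 15.6%.

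Wnt2b encodes a ligand of the beta-catenin branch. Its low arrays read 8.92, 8.99 and 9.10 and its high arrays 9.49, 9.41 and 9.32. Every high array was above every low array, with means of 9.41 ± 0.083 and 9.01 ± 0.090 (SD, n = 3). Here and for the ligands below, n counts deposited columns, of which 2 are independent in the high group. The difference was 0.40 (−0.072 to 0.87), with limma adjusted p = 0.852 in the main fit and 0.0469 with group alone.

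Wnt6, a ligand expressed in many embryonic epithelia, read 4.99, 5.03 and 4.96 in the low arrays and 5.38 in each of the high arrays. The groups were apart, and the low mean was 4.99 ± 0.033 (SD, n = 3). The difference was 0.38 (−0.070 to 0.84), with limma adjusted p = 0.852 in the main fit and 0.029 with group alone.

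Wnt7a is needed for patterning of the Müllerian duct, from which oviduct and uterus form. It read 3.05, 2.90 and 3.17 in the low and 3.44, 3.45 and 3.46 in the high arrays. All of these lie below the median of named genes (4.13), so the signal was dim in both groups, although they did not overlap (3.45 ± 0.0095 against 3.04 ± 0.13, SD, n = 3). The difference was 0.41 (−0.063 to 0.89), with limma adjusted p = 0.852 and 0.0479 in the same order of fits.

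Wnt8b, best known from the embryonic forebrain, was the called ligand on the lower side. Its readings were 2.75, 2.58 and 2.60 in the low and 2.10, 2.21 and 2.31 in the high arrays. It too was dim throughout, at 2.65 ± 0.092 in the low and 2.21 ± 0.11 in the high group (SD, n = 3). The difference of −0.44 (−0.92 to 0.037) had limma adjusted p = 0.846 in the main fit and 0.0452 with group alone. Its size rested on single arrays: it was −0.28 without low 1 or high 1 and −0.65 without high 3.

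The DNA just upstream of these 4 ligands is shown because they were the members that either fit called. Each window is the 250 bases before the RefSeq start on GRCm38.p6, 5′ to 3′ on the gene's strand: Wnt2b at chr3:104961710-104961959 (minus strand), Wnt6 at chr1:74771642-74771891 (plus), Wnt7a at chr6:91411354-91411603 (minus) and Wnt8b at chr19:44493222-44493471 (plus). Capitals mark the core letters of the TCF/LEF site, through which beta-catenin acts, searched as CTTTGA and CTTTGT on both strands, with no overlap between matches in these windows.
Wnt2b: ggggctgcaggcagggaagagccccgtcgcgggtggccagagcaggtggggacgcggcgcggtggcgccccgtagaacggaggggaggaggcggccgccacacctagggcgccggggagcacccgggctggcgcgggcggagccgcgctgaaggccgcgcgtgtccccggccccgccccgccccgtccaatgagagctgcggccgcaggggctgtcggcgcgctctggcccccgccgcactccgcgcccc
Wnt6: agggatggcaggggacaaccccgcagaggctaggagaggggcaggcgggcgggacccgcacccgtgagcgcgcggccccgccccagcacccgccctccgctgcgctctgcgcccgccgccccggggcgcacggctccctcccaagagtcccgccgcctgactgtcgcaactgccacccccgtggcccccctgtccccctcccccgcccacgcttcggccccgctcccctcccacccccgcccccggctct
Wnt7a: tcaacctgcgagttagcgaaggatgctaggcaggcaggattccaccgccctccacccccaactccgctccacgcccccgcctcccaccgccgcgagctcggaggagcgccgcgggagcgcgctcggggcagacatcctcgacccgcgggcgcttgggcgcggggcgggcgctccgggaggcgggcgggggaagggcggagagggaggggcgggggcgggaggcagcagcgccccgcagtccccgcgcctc
Wnt8b: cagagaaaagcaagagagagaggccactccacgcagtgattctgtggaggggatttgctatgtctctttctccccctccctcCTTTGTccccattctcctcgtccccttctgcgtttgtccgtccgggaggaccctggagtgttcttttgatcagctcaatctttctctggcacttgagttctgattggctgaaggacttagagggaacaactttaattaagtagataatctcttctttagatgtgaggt

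The letters occurred in 1 of the 4 windows, that of Wnt8b, starting 168 bases before the start. Promoter windows were at hand for 25 of the 36 genes (28 windows), and 7 windows (25%) held a match, beside 27.6% of all 32851 windows of this length. A match is a description of letters and no match says only that they are not in this window. The windows of Wnt2b, Wnt6 and Wnt7a were rich in G and C (80.8%, 79.6% and 77.6%), as were most windows of the set, whose median was 71.2% beside 52.4% over all windows. Wnt8b had the lowest value of the member windows, 48.4%, and 5 CpG sites, beside a median of 23.5 in member windows and 6 in all.

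Other ligands with groups apart were Wnt4 (0.27, −0.22 to 0.75) and Wnt9b (0.13, −0.34 to 0.60) on the higher side and Wnt3 (−0.33, −0.83 to 0.18) on the lower. Wnt4 read 6.27, 6.51 and 6.27 in the low and 6.69, 6.61 and 6.54 in the high group. The gap between its groups was narrow, 6.51 against 6.54, as was that of Wnt9b, 3.67 against 3.68. Wnt9b and Wnt3 were dim, with means of 3.68 and 2.315 over the 6 arrays. Wnt5a, the ligand most linked to Ror2 signalling, read 3.24, 3.39 and 2.79 in the low and 2.78, 2.88 and 2.99 in the high arrays, which overlap (−0.25, −0.83 to 0.32). Wnt3a, a ligand used in culture to sustain Lgr5-expressing stem cells, differed by 0.32 (−0.20 to 0.84), with 1 low array (3.11) inside the range of the high arrays (3.08 to 3.29). For the other 10 ligands the differences ran from −0.33 for Wnt10a to 0.10 for Wnt9a.

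Wnt genes lie in the mouse genome partly as adjacent genes, and 4 such pairs are in the set. Wnt6 and its neighbour Wnt10a on chromosome 1 differed by 0.38 and by −0.33 (−0.86 to 0.19). Wnt9b and Wnt3 on chromosome 11 also lay on opposite sides of 0 (0.13 and −0.33), whereas Wnt3a and Wnt9a, on the same chromosome, were both above 0 (0.32 and 0.10). Wnt10b and Wnt1 on chromosome 15 were both below it (−0.065 and −0.25). Since all 8 intervals include 0, no pair is shown to move together or apart.

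Of the 10 Frizzled receptors, 8 differences were above 0 and 2 below (Fzd3 and Fzd10), with a median of 0.19, and 0 were called by limma in either fit. Above 0 were also 53.8% of named genes. Of the 10 receptors 7 were brighter than the median gene, and for such genes the share was 66% and the median difference 0.097. The count of 8 depended on single arrays. Without low 1 or high 1, which give the same fit, 5 of 10 were above 0 and the median was −0.0033, and with the brightness trend over all genes subtracted 8 of 10 stayed above 0 with a median of 0.10. Centring each array on its median gave 9 of 10, but it also raised the median over all named genes from 0.025 to 0.081.

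Fzd7, a receptor that intestinal stem cells use for Wnt signals, differed by 0.41 (−0.15 to 0.97), and by 0.25 without low 1 or high 1 and 0.63 without high 3. Low 2 read 5.20, inside the range of the high arrays (5.18 to 5.40), whereas low 1 and low 3 read 4.77 and 4.67. Low 2 was also far above the other low arrays for Fzd3 (7.03 beside 6.51 and 6.23) and Fzd6 (5.82 beside 5.28 and 5.19), receptors with a role in planar cell polarity. Without low 2 the difference of Fzd3 was 0.21, with it −0.0085.

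Fzd4, which also binds the non-Wnt ligand norrin and is needed for a functional corpus luteum in mice, had the tightest readings of the receptors whose groups were apart. They were 6.38, 6.31 and 6.35 in the low and 6.55, 6.58 and 6.62 in the high arrays, a difference of 0.24 (−0.22 to 0.69), with limma adjusted p = 0.892 in the main fit and 0.0828 with group alone. Fzd1 was the other Frizzled receptor with groups apart, by 0.12 (−0.34 to 0.58), with a highest low and a lowest high reading that both round to 5.14. The remaining differences were 0.18 for Fzd5, 0.19 for Fzd6 and Fzd8, 0.24 for Fzd9, 0.065 for Fzd2 and −0.26 for Fzd10. Their intervals all span 0.

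Both co-receptors of the beta-catenin branch had differences near 0. Lrp6 read 7.93, 7.86 and 7.96 in the low and 7.85, 7.86 and 7.87 in the high arrays, and the difference of −0.058 had an interval of −0.51 to 0.40. The second Lrp6 probe set gave −0.14 (−1.06 to 0.79 in a fit over all probe sets). Its low arrays spread from 6.55 to 7.60, and low 2 was again the highest. Lrp5 differed by −0.011 (−0.64 to 0.62), with low arrays from 5.13 to 5.84.

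The tyrosine-kinase-like receptors Ror1 and Ror2, which serve Wnt5a, lay on opposite sides of 0. Ror1 read 4.44, 4.47 and 4.21 in the low and 4.54, 4.61 and 4.67 in the high arrays (0.23, −0.25 to 0.72). Ror2 read 4.46, 4.65 and 4.52 against 4.42, 4.34 and 4.26 (−0.21, −0.68 to 0.27). Groups were apart for both genes, but the gap was narrow, from 4.47 to 4.54 and from 4.42 to 4.46, and neither was called in either fit. The difference between the 2 genes was not tested. Ryk, a pseudokinase receptor, differed by 0.042 (−0.43 to 0.52), and that sign turned when arrays were quantile normalised (−0.074).

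Of the release genes, Wls read 8.48, 8.64 and 8.48 in the low and 8.84, 8.79 and 8.73 in the high arrays. All high arrays lay above all low arrays, and the difference was 0.25 (−0.21 to 0.72), with limma adjusted p = 0.892 in the main fit and 0.108 with group alone. Porcn, on the X chromosome, read 4.70, 5.35 and 4.94 against 5.27, 4.97 and 4.67. Those groups covered nearly the same range, with a difference of −0.029 (−0.69 to 0.63).

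Within the inferred array sets there are 2 contrasts per gene, high 1 minus low 1 (the first set) and high 3 less the average of low 2 and 3 (the second set). Both had the same sign for 21 of the 36 members (58.3%), 13 above 0 and 8 below, where 55.1% of named genes had the same sign. Wnt6 (0.38 in both) and Wnt7a (0.39 and 0.43) had nearly equal contrasts. Porcn (0.57 and −0.48) and Fzd9 (0.78 and −0.16) had contrasts that point in opposite directions, so their difference near or above 0 is a mean over unlike values. By the column relations low 1 contains the low columns of the second set, so the contrasts are not separate measurements.

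**Figure D3:**
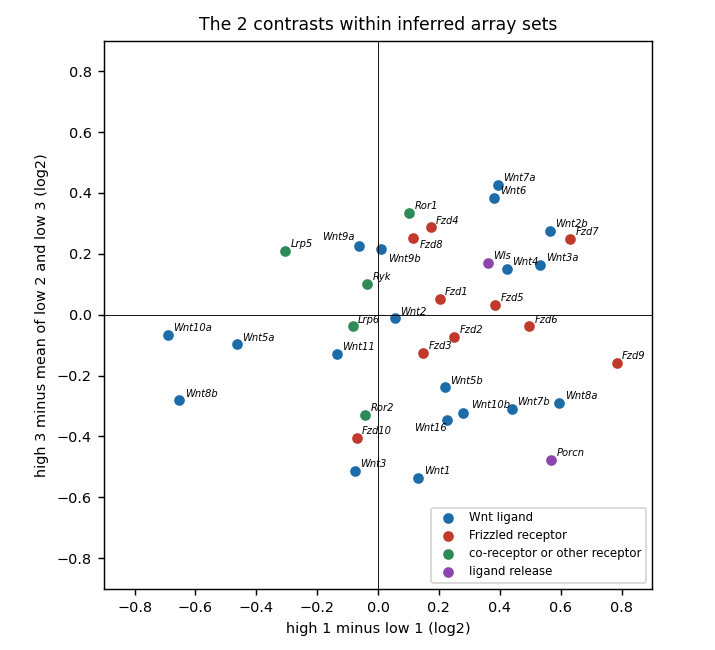
For each of the 36 genes, high 1 minus low 1 (x axis, log2) against high 3 less the average of low 2 and 3 (y axis, log2), coloured by role. The upper right holds 13 genes, with Fzd7, Wnt2b, Wnt7a, Wnt3a and Wnt6 farthest out, the lower left 8, and 15 genes lie in the other corners.

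Difference and brightness were related over all genes, and the members are given beside it. Brightness depends on the probes as well as on the transcript, so it is not read as a level that can be compared between genes. Among named genes brighter than the median the median difference was 0.097, and among dimmer genes it was −0.054. The 19 members brighter than the median (52.8%, where 50% of named genes are) had a median difference of 0.18 with 14 above 0, and the 17 dimmer ones −0.065 with 7 above 0. All 5 ligands among the brighter members (Wnt2b, Wnt4, Wnt6, Wnt8a and Wnt9a) were above 0, beside 66% of bright named genes, while 5 of the 14 dimmer ligands were (41.6% of dim named genes). With the trend over all genes subtracted the difference was 0.27 for Wnt2b, 0.29 for Wnt6, 0.46 for Wnt7a and −0.37 for Wnt8b, and the median over the 36 was 0.034.

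**Figure D4:**
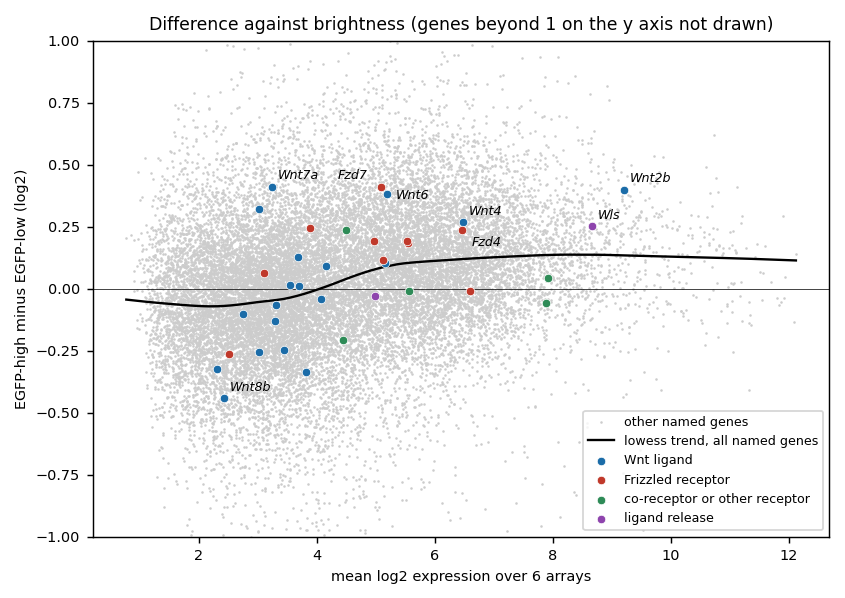
Mean log2 expression over the 6 arrays (x axis) against EGFP-high minus EGFP-low (log2, y axis) for the members, coloured by role, and for the other named genes in grey, with the lowess trend over all named genes in black. The trend lies below 0 for dim genes and above 0 for bright ones, and Wnt2b, Wls, Wnt6 and Fzd7 lie above it.

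Other genes of the pathway, from 5 lists chosen with earlier results of these data known, gave 0 calls in the main fit. Their counts with group alone stand beside 3.9% of all named genes called higher and 2.77% called lower in that fit. Their counts above 0 stand beside 53.8% of all named genes, 66% of those brighter than the median and 41.6% of dimmer ones. The list of secreted antagonists had a median brightness below that of all named genes, and each other list one above it. Nuclear factors and feedback targets had a median of 0.13 over 10 measured genes, 8 of them above 0. With group alone 2 were called higher: Sp5 (0.58, 0.12 to 1.03) and Axin2 (0.45, −0.0097 to 0.91). Sp5 and Axin2 are transcribed in response to beta-catenin in many tissues. The 2 below 0 were Apcdd1 (−0.62, −1.33 to 0.096), the largest difference of the list in size, and Notum (−0.15, −0.74 to 0.44). The R-spondin list had a median of 0.16 over 9 genes, and its 2 genes called with group alone were Lgr5 itself (1.10, 0.62 to 1.57), on whose locus the sort was made, and its relative Lgr6 (0.83, 0.34 to 1.31).

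Secreted antagonists and Kremen genes had a median of −0.14 over 14 genes, 5 above 0 and 9 below, with 1 called higher and 2 lower with group alone. The 1 called higher was Dkk2 (0.43, −0.022 to 0.89), and Dkk4 (−0.52, −1.01 to −0.037) was called lower. Dkk2 and Dkk4 were added after their values were seen. Sfrp4, which binds Wnt ligands outside the cell, was also called lower and differed by −3.41 (−4.65 to −2.17), and Sfrp2, not called in either fit, by −0.82 (−1.45 to −0.20). The differences of Sfrp4 and Sfrp2 are larger in size than that of any ligand or receptor in the set. The cytoplasmic core had a median of 0.15 over 9 genes, 8 above 0 and 0 called in either fit. Its members with the smallest p were Amer1 (0.37, −0.19 to 0.92) and Gsk3b (0.27, −0.34 to 0.89), both of the complex that marks beta-catenin for destruction. Planar polarity genes had a median of 0.26 over 10, with 1 called higher with group alone, the formin Daam2 (0.46, 0.0020 to 0.93). Celsr3, an atypical cadherin, differed by 0.34 (−0.15 to 0.82).

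**Figure D5:**
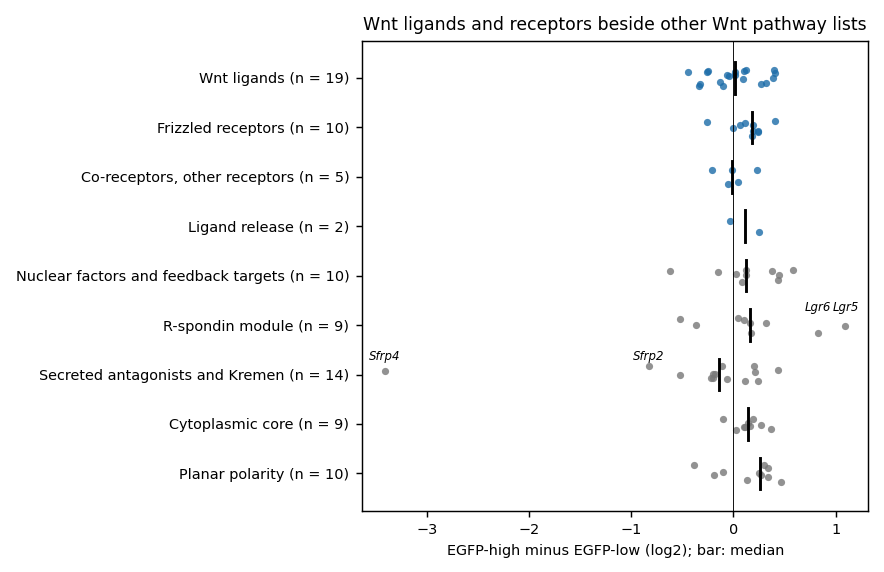
EGFP-high minus EGFP-low (log2, x axis) for each gene of the 4 roles described here (blue) and of 5 other Wnt pathway lists (grey), with the median of each as a black bar. The blue points stay within −0.44 and 0.41, while Sfrp4 at −3.41 and Lgr5 at 1.10 stand far out in their lists.

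Markers of the labelled tissue were bright in both groups. The summed linear signal of 13 surface epithelium and mesothelium markers ran from 10409.6 to 10739 in the low and from 12371 to 12745 in the high arrays. Of the 13 differences 12 were above 0, beside 66% for named genes brighter than the median. Krt18 differed most, with means of 10.43 in the low and 11.05 in the high group, and a linear sum weighs bright genes most. The keratins Krt7 and Krt8 of simple epithelia had means of 8.56 and 8.71 in the low and 8.72 and 9.02 in the high group. Summed markers of leukocytes, stroma, theca, granulosa cells, oocytes and oviduct were lower in every EGFP-high array than in any EGFP-low array. Of single named genes, 13.9% were. The oocyte and oviduct lists were dim, with median brightness of 3.41 and 3.49 beside 4.13 over all named genes. Such readings cannot be told from background, so they do not show that those cells were present. The leukocyte (3.96) and granulosa (4.10) lists also lay below that median. The sums of endothelial markers and of smooth muscle and pericyte markers overlapped between groups. The 11 leukocyte markers summed to 227.7 to 582.4 in the low, highest in low 2, and to 148.4 to 158 in the high arrays. The 10 stroma markers summed to 737.4 to 1023.4 and 641.7 to 649.2, and the 4 measured theca and luteal markers to 786.8 to 1083.8 and 563.4 to 589.7.

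The first 2 measured genes of each list, given in the order in which it was written, show how uneven the lists were. Among leukocyte markers 10 of 11 lay below 0, with −0.38 for Ptprc and −3.77 for Lyz2. Among stroma markers 9 of 10 did, with −0.45 for Col1a1 and −3.08 for Col1a2, while Thy1 differed by 0.53 with its groups apart. The theca and luteal list was split, 2 above 0 and 2 below. Cyp11a1 (−4.74), the 1 gene that passed the main fit, and Hsd3b1 (−2.76) lay below, whereas Cyp17a1 differed by 0.044 and Star by 0.33, with every high array of Star above every low array. The lower sum of that list thus rests on Cyp11a1 and Hsd3b1. Krt18, Thy1, Hsd3b1 and Star were added after their values were seen.

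Granulosa markers had a median of −0.94 over 7 genes, with −0.65 for Foxl2 and −1.22 for Fshr. Oocyte markers had −0.34 over 6, with −0.048 for Zp1 and −0.90 for Zp2, and oviduct markers −0.30 over 2, with −0.17 for Pax8 and −0.43 for Foxj1. The oocyte and oviduct lists were dim, and named genes dimmer than the median had a median difference of −0.054. Endothelial markers had 0.036 over 5, with 0.27 for Pecam1 and −0.69 for Cdh5. Smooth muscle and pericyte markers had 0.096 over 6, with 0.15 for Acta2 and 0.042 for Myh11. The part of these cells in the readings of Wnt ligands and receptors was not tested.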

How the data were processed

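Values were the log2 expression of 41345 probe sets that the authors deposited for 6 arrays, made with Affymetrix Expression Console and RMA per the submitters' processing notes, which give no versions. Array medians ran from 3.76 to 3.85. A table of linear ratios of high over low, deposited by the authors with its p-values unfilled, served only to look up members. The genome build and annotation behind both are not given in the sources used here. No per-sample column lacked a sample (0). Probe sets with 1 symbol in the platform annotation (23521) were kept, 1820 with several and 16004 unlisted ones were not, and 0 of those with several named a member. The brightest per gene left 22180. No further normalization or filter was applied.

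Limma 3.58.1 in R 4.3.3 (lmFit, eBayes, two-sided, Benjamini-Hochberg, threshold 0.05) was fitted with group and array set. It was tested on simulated data with independent noise per array and a shared set effect. The 2 column relations were not imposed there, so that test does not vouch for intervals or p-values under them. An earlier reading of these data had found the array sets, from values and not from labels, and the members, lists and tests were chosen with earlier results of these data known. Alternatives were group alone, replicate number as block, each array left out, other probe set rules, scaling, a brightness filter and trend removal (lowess span 0.3). The naming rule gives all 6 readings for members past the threshold in either fit, for those with groups apart by a difference of at least 0.4, for any in the authors' table and for those whose probe sets differ in sign. It also takes Lgr5, the 2 genes of smallest p per pathway list and the first 2 of each marker list as written. Further members given in full were chosen after their values were seen. Sequences are RefSeq's, GRCm38.p6, matched by symbol; the 36 members matched by Entrez identifier. Figures used matplotlib 3.10.9.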

Additional observations from a re-analysis of the deposited data

How the results depend on the processing

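Precision is limited by the number of arrays: 2 residual degrees of freedom, and intervals 0.91 to 1.33 wide (log2) for the members. No detection calls were used, so dim readings cannot be told from background. With group as the only term limma called 1479 named genes and 4 members, against 1 and 0 in the main fit. With the replicate number as a block (replicate block) it called 4 named genes and 0 members; whether the numbers pair the arrays could not be tested, since the column relations set the correlations of same-numbered deviations (−1, −0.005 and −0.28). Averaging a gene's probe sets or testing all probe sets called 0 named genes and 0 members, with 0 members called under every other alternative with a test. Leaving out 1 array in turn gave 1 to 23 named genes, the most without high 3, and 12 to 20 members with groups apart, the most without low 2. Over all named genes the share with groups apart ran from 33.2% to 50.5%, also highest without low 2. The members' median ran from −0.038 (without low 1 or high 1) to 0.19 (without high 3), and was 0.11 with each array centred on its median, where 25 of 36 were above 0 instead of 21. Centring moved all genes: the median over all named genes was then 0.081, beside 0.025 in the main fit.

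No called member changed sign, since none was called in the main fit. Centring turned the small differences of Fzd3 (0.048), Lrp5 (0.045), Porcn (0.027) and Wnt5b (0.014), and Ryk turned under quantile normalization (−0.074) and trend removal (−0.093). With 1 array left out, 15 differences crossed 0: Fzd2 (−0.073 to 0.25), Fzd3 (−0.19 to 0.21), Fzd6 (−0.038 to 0.50), Fzd9 (−0.16 to 0.78), Lrp5 (−0.31 to 0.21), Porcn (−0.48 to 0.57), Ryk (−0.037 to 0.10), Wnt1 (−0.54 to 0.13), Wnt10b (−0.32 to 0.28), Wnt16 (−0.35 to 0.23), Wnt2 (−0.13 to 0.17), Wnt5b (−0.24 to 0.22), Wnt7b (−0.31 to 0.44), Wnt8a (−0.29 to 0.60) and Wnt9a (−0.064 to 0.23). Wnt2b, Wnt6, Wnt7a and Wnt8b kept their sign under all alternatives run, as did each other member not listed above in this paragraph. These ligands were picked from the same values, and the fits with group alone or a block return the same difference. A kept sign is thus no separate support for them. With 1 array left out these ligands ran from 0.28 to 0.57, 0.37 to 0.40, 0.34 to 0.48 and −0.65 to −0.28. The cause of these shifts was not tested.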
